A study of Mus musculus with 21 samples.

Results

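The 8 genes examined here encode enzymes of heme biosynthesis and were chosen by symbol, as Alas1, Alas2, Alad, Uros, Urod, Cpox, Ppox and Fech, from the 45706 gene IDs of 21 mouse RNA-seq libraries. All 8 were among the 19555 genes with enough counts to test, and the lowest count of any of them in any library was 134, for Alas2. The study modelled juvenile myelomonocytic leukemia, a childhood myeloproliferative neoplasm, with the D61Y mutation of Ptpn11, the gene of the phosphatase SHP2. Its 3 genotypes were MxCre, with Cre recombinase under the interferon-inducible Mx1 promoter and no Ptpn11 mutation, Ptpn11D61Y/+, with the mutant allele silenced by a Neo-Stop cassette and no Cre, and S3, the terminal disease stage of mice carrying both MxCre and Ptpn11D61Y/+. According to the study's methods every genotype received poly I:C, the interferon inducer that switches Mx1-driven Cre on. The study likens the Ptpn11D61Y/+ controls to a heterozygous knock-out of Ptpn11. Each genotype was sampled as LSK cells (Lin- Sca1+ cKit+, the stem and progenitor compartment of the bone marrow, BM), as CD11b+ myeloid cells of the BM and as CD11b+ cells of the spleen. Every fraction held 2 MxCre, 2 Ptpn11D61Y/+ and 3 S3 libraries, and ages are not given in the sources used here. The S3 libraries carry animal numbers. The methods give mice per genotype for the CD11b+ RNA of S3 and MxCre mice, in a number that differs from the MxCre libraries here, and the labels do not tie control libraries to mice, so the spread of the controls may be technical. Totals ran from 34992610 to 104509425 counts per library, with a median of 69421661. Genes with at least 1 count numbered 14641 to 24220 per library, and the fewest were in spleen MxCre replicate 1 (14641), BM S3 animal 815 (14761) and BM MxCre replicate 1 (14885), below 17493 in the next.

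Heme is made from glycine and succinyl-CoA in a chain that starts and ends inside the mitochondrion. The first step, the condensation to 5-aminolevulinate, limits the rate and is carried out by ALAS1 in most tissues and by ALAS2 in red cell precursors, where it serves hemoglobin. Alad joins 2 molecules of aminolevulinate, Uros closes the ring, Urod and Cpox trim its side chains, Ppox oxidizes it to protoporphyrin and Fech inserts the iron.

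The fraction labels were compared with marker genes before the enzymes were read. The summed level of 10 stem and progenitor markers was 1351 to 2103 CPM (TMM-scaled counts relative to library size) in the 7 LSK libraries, against 67.6 to 320.3 in BM CD11b+ and 72.5 to 552.9 in spleen CD11b+ libraries. The summed level of 6 myeloid markers was 400.4 to 1160 CPM in LSK, 3858 to 15690 in BM CD11b+ and 5285 to 20180 in spleen CD11b+ libraries. Erythroid markers were present in every fraction: the hemoglobin genes and other red cell genes on a list of 18, of which 17 were tested, summed to 347.9 to 2038 CPM in LSK, 14590 to 225200 CPM in BM CD11b+ and 1155 to 31490 CPM in spleen CD11b+ libraries. The LSK library of S3 animal 540 held 1 count of Xist, whereas the BM and spleen libraries under that number held 2780 and 712, so results that pair libraries by animal are also given with this library treated as another animal. The study's methods describe CD11b+ isolation, for cultured cells, with a magnetic (MACS) kit and repeated column separation, and a sort of CD11b+ cells only where indicated. The fractions are called sorted here whichever way the cells were isolated. In bulk RNA from such fractions, fewer cells of a type and less RNA per cell cannot be told apart.

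Alas1 (ENSMUSG00000032786) lies on chr9:106233455-106248654 on the minus strand and Alas2 (ENSMUSG00000025270) on chrX:150547375-150570638 on the plus strand of GRCm38. The 250 bases before a RefSeq start site of each gene (GRCm38.p6, Alas1 at chr9:106247731-106247980, minus strand, and Alas2 at chrX:150547167-150547416, plus strand) are printed 5′ to 3′ because these 2 genes encode the enzymes of the first step. Capitals mark matches on either strand to the GATA motif AGATAA, its second form TGATAA, the CACC box CCACCC and the NRF1 core GCGCATGC.
Alas1: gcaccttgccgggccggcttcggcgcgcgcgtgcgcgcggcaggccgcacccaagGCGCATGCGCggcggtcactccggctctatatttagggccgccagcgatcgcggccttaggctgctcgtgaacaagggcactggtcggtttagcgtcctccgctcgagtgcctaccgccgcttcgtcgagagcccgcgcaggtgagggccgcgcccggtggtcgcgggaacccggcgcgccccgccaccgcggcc
Alas2: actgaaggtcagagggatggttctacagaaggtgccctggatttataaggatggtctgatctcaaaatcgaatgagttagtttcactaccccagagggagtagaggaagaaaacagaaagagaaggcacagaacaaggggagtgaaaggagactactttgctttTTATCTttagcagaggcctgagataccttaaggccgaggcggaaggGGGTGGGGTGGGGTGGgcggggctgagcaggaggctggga
The Alas1 stretch holds 74.4% G or C and 2 overlapping matches to GCGCATGC, which begin 195 and 193 bases before the start. The Alas2 stretch holds 51.2% G or C, 1 match to AGATAA read on the other strand 86 bases before the start, and 3 overlapping matches to CCACCC on the other strand at 40, 35 and 30 bases. Of 32851 such stretches over all genes of the table, 9.99% held AGATAA, 7.94% held TGATAA, 16.6% either GATA motif, 28.1% the CACC box and 2.26% the NRF1 core. RefSeq stretches matched 7 of the 8 genes, in 10 windows. A second Alas1 window held 1 CACC box at 228 bases, Cpox held TGATAA at 86 bases and 1 of the Uros windows held it at 68 bases, and those of Alad, Urod and Ppox held none of these letters. These matches describe the sequence and are not binding sites.

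The genes of the first step differed most in how far they varied. Alas1 ran from 61.3 CPM to 305.6 CPM over the 21 libraries with a median of 123.1, a 4.99-fold range, whereas Alas2 ran from 1.40 to 4696 CPM with a median of 66.5, a 3364-fold range. The later enzymes lay in between, with ranges of 11.9-fold for Ppox, 22.2-fold for Uros, 30.7-fold for Urod, 40.3-fold for Alad, 57.3-fold for Fech and 59.1-fold for Cpox. Corrected for exonic length, the median level over the libraries was 27.7 RPKM (CPM divided by the exonic length in kilobases) for Alas2, 24.7 for Alad, 22.1 for Urod, 19.9 for Alas1 and 14.6 for Ppox. Cpox, Uros and Fech were lower, at 4.87, 3.90 and 3.42 RPKM. Because exonic length sums over isoforms, the order of Alas1 and Alas2 turned with the length of the longest transcript, which gave 36.2 RPKM for Alas1 and 32.7 RPKM for Alas2.

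**Figure D1:**
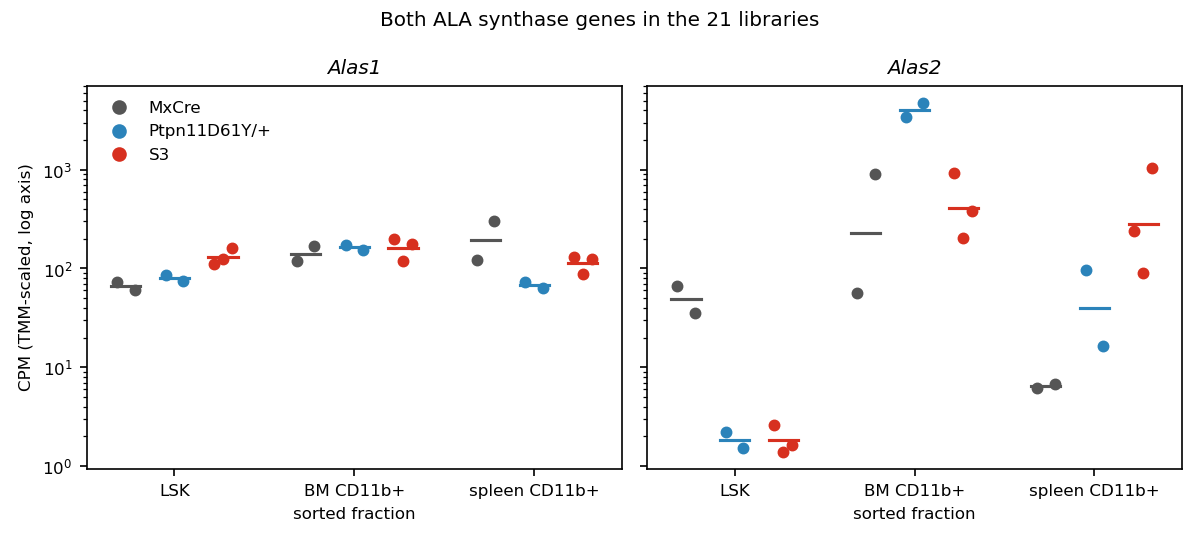
TMM-scaled CPM of Alas1 and Alas2 (log axis) in each of the 21 libraries by sorted fraction, with 1 point per library, colours for the 3 genotypes and bars at the group mean of the log values. Alas1 stays between 61.3 and 305.6 CPM, while Alas2 spans 1.40 to 4696 CPM, highest in BM CD11b+ cells of Ptpn11D61Y/+ mice and lowest in LSK cells of Ptpn11D61Y/+ and S3 mice.

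In order of mean log2 CPM (± SD), Alas2 stood first in Ptpn11D61Y/+ BM CD11b+ cells at 11.98 ± 0.31 (n = 2), 3.28 above S3 BM CD11b+ cells at 8.69 ± 1.10 (n = 3), with no overlap of their libraries. S3 spleen (8.14 ± 1.77, n = 3), MxCre BM (7.83 ± 2.84, n = 2), MxCre LSK (5.60 ± 0.64, n = 2) and Ptpn11D61Y/+ spleen (5.31 ± 1.81, n = 2) followed, and neighbours among them overlapped. MxCre spleen stood apart below these at 2.69 ± 0.08 (n = 2). Ptpn11D61Y/+ LSK at 0.90 ± 0.38 (n = 2) and S3 LSK at 0.89 ± 0.47 (n = 3) came last and did not differ beyond their spread.

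The order for Alas1 was another one. It was highest in MxCre spleen cells at 7.60 ± 0.93 (n = 2), followed by Ptpn11D61Y/+ BM (7.36 ± 0.12, n = 2), S3 BM (7.35 ± 0.39, n = 3), MxCre BM (7.15 ± 0.35, n = 2), S3 LSK (7.02 ± 0.27, n = 3) and S3 spleen (6.82 ± 0.32, n = 3), with each overlapping the next. Ptpn11D61Y/+ LSK at 6.33 ± 0.13 (n = 2) lay below these without overlap, and Ptpn11D61Y/+ spleen (6.08 ± 0.13, n = 2) and MxCre LSK (6.06 ± 0.17, n = 2) were the lowest and overlapped.

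In spleen CD11b+ cells, terminal disease was compared with MxCre controls. Alas2, the erythroid first enzyme, was at 6.17 and 6.69 CPM in the 2 MxCre libraries and at 241.5, 90.0 and 1037 CPM in S3 animals 540, 815 and 640. Every S3 library lay above both controls, and animal 640 was the highest. MxCre replicate 1 had 14641 genes detected, against 19054 in replicate 2 and 18353 to 22483 in the S3 libraries. The fitted log2 fold change was 6.15 (SE 1.36), or 70.9-fold, with an adjusted p of 0.0219 (edgeR's quasi-likelihood test, Benjamini-Hochberg adjustment over all genes tested, as for every adjusted p here). It was the only member that passed, 1 of 8, where 4.19% of all genes passed. An unadjusted p under 0.05 was found for 5 of 8 members and for 4945 of 19555 genes tested. Leaving out animal 640 gave 4.69 (adjusted p = 0.0447). The call was lost without either MxCre library, at 6.10 (adjusted p = 0.145) and 6.23 (adjusted p = 0.0885) without replicates 1 and 2, and against both control genotypes together at 3.85 (adjusted p = 0.281). It was kept without the 3 libraries with the fewest detected genes (6.10, adjusted p = 0.042). Where leaving out libraries leaves 1 in a group, as it does here for MxCre, the spread comes from the other groups and the lone library is assumed to vary like them.

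The other enzymes of the spleen comparison did not pass the threshold. Fech, which completes heme, was at 21.2 and 17.3 CPM in MxCre and at 75.3, 51.9 and 538.9 CPM in S3 animals 540, 815 and 640. No S3 library reached down to the controls, and the log2 fold change was 3.53 (SE 0.977) with an adjusted p of 0.0514 by the same edgeR test. Cpox was at 13.1 and 5.45 CPM in MxCre and at 28.9, 7.46 and 322.3 CPM in the same S3 animals, so the groups overlapped, and its log2 fold change of 3.69 (SE 1.37) had an adjusted p of 0.117. Both rested in part on animal 640, without which Fech stood at 1.73 (adjusted p = 0.17) and Cpox at 0.97 (adjusted p = 0.6). Fech passed in 4 of 13 alternatives, with scaling by library size alone, DESeq2, at least 10 counts in every library compared and without animal 815, and Cpox in 1, DESeq2. Alad (2.25, SE 1.04), Urod (1.68, SE 0.846) and Uros (1.60, SE 0.862) had adjusted p-values of 0.189, 0.225 and 0.25, each with all 3 S3 libraries above both controls. Urod ran from 0.99 to 2.56 leaving 1 library out. Ppox stood at -0.16 (SE 0.598, adjusted p = 0.891), and at 0.41 when scaled by library size alone. Alas1 had the opposite sign, with 123.1 and 305.6 CPM in MxCre against 130.9, 87.1 and 125.7 CPM in S3 animals 540, 815 and 640, which overlapped, and a log2 fold change of -0.90 (SE 0.347, adjusted p = 0.127). Without MxCre replicate 2 it was -0.089 (adjusted p = 0.904), and without MxCre replicate 1 it was -1.41 (adjusted p = 0.056). The median over the 8 members was 1.96, beside 0.32 over all genes tested. Scaling by library size alone in place of TMM moved that median of all genes by 0.45, and Alas2 then stood at 6.74.

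Red cell genes moved with this result. All 17 tested erythroid markers had higher fitted values in S3 than in MxCre spleen cells, with a median log2 fold change of 4.83, and 4 passed the test, among them Hbb-bs at 3.73 (adjusted p = 0.0278) and Epb42 and Trim10, which like Rhag were at 0 in MxCre replicate 1. The markers summed to 3445 and 1172 CPM in MxCre, to 5221 and 1155 CPM in Ptpn11D61Y/+ and to 14680, 15950 and 31490 CPM in S3 animals 540, 815 and 640, and Hba-a1 was the most abundant in MxCre. Without the globins the sums were 53.9 and 41.5 CPM in MxCre, 243.9 and 28.9 CPM in Ptpn11D61Y/+ and 556.7, 248.2 and 7188 CPM in S3, so animal 640, highest for Alas2, Fech and Cpox, was also highest for these genes. Their part in the enzyme values was not tested.

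**Figure D2:**
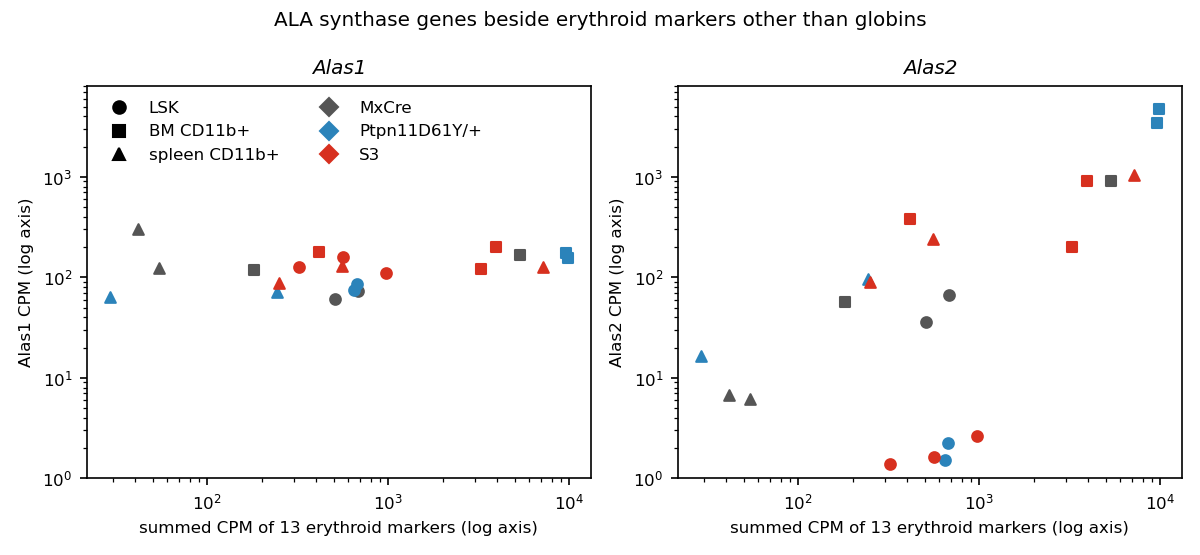
CPM of Alas1 (left) and Alas2 (right) in each of the 21 libraries against the summed CPM of the 13 erythroid markers other than globins, both on log axes, with symbols for the sorted fractions and colours for the genotypes. Pearson's r over the libraries was 0.24 for Alas1 and 0.65 for Alas2, and the LSK libraries of Ptpn11D61Y/+ and S3 mice lie at 1.40 to 2.63 CPM of Alas2 with marker sums of 322.1 to 975.6 CPM.

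In LSK cells the same contrast had the opposite sign for Alas2. It was at 66.5 and 35.6 CPM in MxCre and at 2.63, 1.40 and 1.64 CPM in S3 animals 540, 815 and 768, with no overlap. The log2 fold change was -4.75 (SE 1.09, unadjusted p = 0.000478), but it did not pass after adjustment (adjusted p = 0.328), in a comparison where 0.0307% of all genes passed. DESeq2 gave -4.86 (adjusted p = 0.000435), and an edgeR fit of the libraries compared alone gave -4.79 (adjusted p = 0.00686). That fit of the libraries compared alone called 4700 of all genes, against 6 in the fit reported. Alas1 was at 72.4 and 61.3 CPM in MxCre and at 109.8, 125.5 and 159.6 CPM in S3 animals 540, 815 and 768, again without overlap but in the other direction, at a log2 fold change of 0.98 (SE 0.363, adjusted p = 0.991, and 0.0198 in the fit of the libraries compared alone, in which Ppox also passed at -0.48, adjusted p = 0.0187). The 6 later enzymes lay between -0.45 and 0.36 with adjusted p-values of 1, and among these Ppox, the oxidase, was at 66.3 and 55.3 CPM in MxCre and at 44.6, 41.9 and 47.5 CPM in S3, below both controls. By edgeR 0 of 8 members passed. An unadjusted p under 0.05 was found for 2 members and for 777 of 19555 genes tested. The median was 0.20 over the members and 0.01 over all genes.

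Globin counts were high in the same LSK libraries as Alas2. Hbb-bs, the adult beta globin, was at 663.0 and 352.1 CPM in MxCre LSK libraries, at 16.2 and 10.5 CPM in Ptpn11D61Y/+ and at 22.2, 8.97 and 12.3 CPM in S3 animals 540, 815 and 768, and it was the 1 of 17 erythroid markers that passed, at -5.13 (adjusted p = 0.0356). Of the 17, 6 had higher and 11 lower fitted values, with a median of -0.43. The markers summed to 2038 and 1231 CPM in MxCre, 709.4 and 672.5 CPM in Ptpn11D61Y/+ and 1028, 347.9 and 591.6 CPM in S3, while without globins the sums were 681.6, 507.6, 670.2, 646.2, 975.6, 322.1 and 560.4 CPM in the same order. Hbb-bs was the most abundant marker in the MxCre libraries and Car2, a carbonic anhydrase, in the other 5. Gata1, a factor that activates Alas2 in red cell precursors, was at 18.2 and 14.7 CPM in MxCre, 23.1 and 21.5 CPM in Ptpn11D61Y/+ and 50.8, 22.7 and 42.2 CPM in S3 (log2 fold change 1.23, adjusted p = 1). The study's methods describe LSK isolation, for cultured cells, as lineage depletion and then a sort on Sca and cKit, a procedure meant to remove red cell precursors. The part of red cell RNA in the Alas2 values was not tested.

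In BM CD11b+ cells no member separated S3 from MxCre. Alas2 was at 56.3 and 912.5 CPM in MxCre and at 916.3, 201.5 and 382.8 CPM in S3 animals 540, 815 and 640, and all 8 members overlapped between the groups. Log2 fold changes lay between -0.40 for Ppox and 0.32 for Cpox, with adjusted p-values of 0.768 to 1. By edgeR 0 of 8 members and 0% of all genes passed, and no member but 3022 genes had an unadjusted p under 0.05. The median over the members was 0.02, beside 0.18 over all genes. Without MxCre replicate 2, whose levels were the higher ones, Cpox stood at 3.48, Alas2 at 3.17, Alad at 2.97 and Uros at 2.5, with no member but 2040 genes passing. The MxCre libraries differed from each other by more than the groups did, with Alad at 34.9 and 588.3 CPM and Uros at 13.8 and 128.9 CPM. Among S3 libraries, animal 640 stood low for Alad, at 17.4 CPM against 334.5 and 462.5 CPM, and its erythroid markers summed to 14590 CPM against 69400 and 126100 CPM. Of the 17 erythroid markers 6 had higher and 11 lower values in S3, with none passing, and the MxCre libraries summed to 50070 and 225200 CPM.

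**Figure D3:**
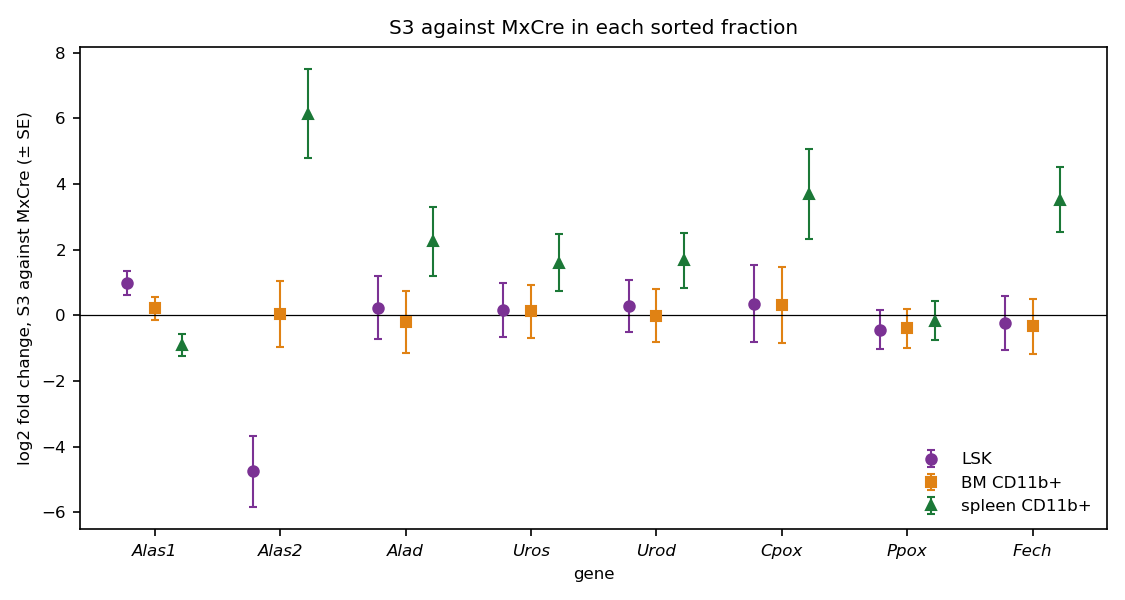
Fitted log2 fold changes of the 8 enzyme genes, S3 against MxCre, in the 3 sorted fractions, with a symbol and colour for each fraction and bars of 1 standard error; only Alas2 in the spleen passed the test. Alas2 stands at -4.75 in LSK cells and 6.15 in spleen CD11b+ cells, Alas1 at 0.98 and -0.90, and all 8 genes lie between -0.40 and 0.32 in BM CD11b+ cells, values that move to as much as 3.48 (Cpox) without MxCre replicate 2.

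The fold changes were then compared between fractions. For Alas2 the S3 against MxCre change was 10.90 (SE 1.79) higher in the spleen than in LSK cells on the log2 scale, with an unadjusted p of 1.47e-05 and an adjusted p of 0.0601. It passed in 5 of 17 alternatives and ran from 9.44 to 11.58 over them. For Alas1 it was lower by a log2 difference of -1.88 (SE 0.502, adjusted p = 0.163), and by -2.393 to -1.075 leaving 1 library out. It passed in 2 of 17 alternatives, DESeq2 (adjusted p = 0.00791) and without the 3 libraries with the fewest detected genes. The latter leaves 1 MxCre library in the spleen. In the fit reported neither passed, and 0 of 8 members did, where 0.00511% of all genes passed and 3 members had an unadjusted p under 0.05. Between spleen and BM CD11b+ cells the Alas2 difference was 6.10 (adjusted p = 0.254, and 0.00239 with DESeq2, the 1 of 17 alternatives in which it passed), with 0 members and 0% of genes passing (3 members unadjusted). With 1 library left out that Alas2 difference ran from 2.998 to 7.023. Between BM CD11b+ and LSK cells it was 4.80 (adjusted p = 0.609), and 7.91 (adjusted p = 0.0364) without BM MxCre replicate 2, the 1 of 17 alternatives in which it passed and one that leaves 1 MxCre library in the BM, with 0 members and 0% of genes passing (1 member unadjusted). Over all genes tested, an unadjusted p under 0.05 was found for 2614 between spleen and LSK, 2100 between spleen and BM and 1587 between BM and LSK cells. All 3 differences share the fold changes they are made of.

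The ratio of Alas2 to Alas1 within a library, per exonic length, does not depend on library scaling. In LSK cells its log2 was 1.24 and 0.58 in MxCre, -3.90 and -4.26 in Ptpn11D61Y/+ and -4.02, -5.12 and -5.24 in S3 animals 540, 815 and 768. MxCre was the only LSK genotype with more Alas2 than Alas1 per length, and both other genotypes lay far below 0. In spleen CD11b+ cells the values were -2.95 and -4.15 in MxCre, 1.78 and -0.60 in Ptpn11D61Y/+ and 2.25, 1.41 and 4.41 in S3 animals 540, 815 and 640. Alas2 therefore exceeded Alas1 in every S3 spleen library and in no MxCre one. In BM CD11b+ cells the log2 ratio was 0.28 and 3.80 in MxCre, 5.67 and 6.29 in Ptpn11D61Y/+ and 3.55, 2.11 and 2.46 in S3 animals 540, 815 and 640, all above 0. With the length of the longest transcript, MxCre replicate 2 in LSK (-0.05) and MxCre replicate 1 in BM (-0.35) fell below 0.

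The S3 minus MxCre difference of the log2 ratio was -5.70 in LSK, 0.67 in BM and 6.24 in spleen cells. The two-sided exact permutation test gave p = 0.1, 0.8 and 0.1, where 0.1 is the smallest value that 3 against 2 libraries allow, so the design could not reach 0.05. Against both control genotypes together (3 against 4, smallest p 0.0286) the differences were -3.21, -1.30 and 4.17, with exact permutation p-values of 0.171, 0.4 and 0.0857. Adjusted by Benjamini-Hochberg within each set of 3 tests, the lowest permutation value in the first set was 0.15 and in the second 0.256.

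**Figure D4:**
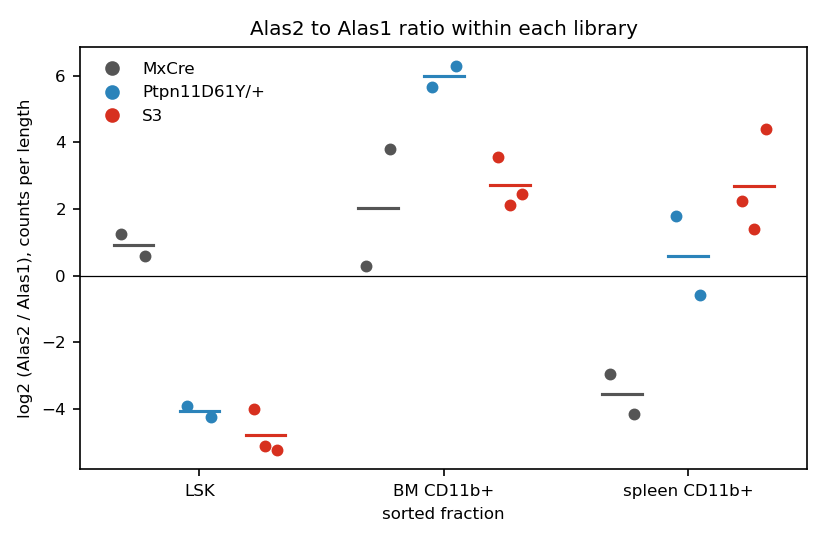
Log2 ratio of Alas2 to Alas1 counts per exonic length in each of the 21 libraries by sorted fraction, with points coloured by genotype, bars at the group mean and a line at 0 where both genes are equal. S3 libraries sit at -5.24 to -4.02 in LSK cells and at 1.41 to 4.41 in spleen CD11b+ cells, and MxCre libraries at 0.58 to 1.24 and -4.15 to -2.95.

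Ptpn11D61Y/+ mice carry the mutant allele without Cre and were compared with the same MxCre libraries. In spleen CD11b+ cells Alas1 was at 72.1 and 63.4 CPM in Ptpn11D61Y/+ and at 123.1 and 305.6 CPM in MxCre, without overlap. It was lower by a log2 fold change of -1.66 (SE 0.395, adjusted p = 0.0287) and was the 1 of 8 members to pass, where 5.11% of all genes passed. The call was lost without MxCre replicate 2 (-0.85, adjusted p = 0.198), without Ptpn11D61Y/+ replicate 1 (-1.72, adjusted p = 0.234) or replicate 2 (-1.57, adjusted p = 0.115), and with scaling by library size alone (-0.97, adjusted p = 0.136). Alas2 was at 96.6 and 16.3 CPM, above both MxCre libraries, at a log2 fold change of 3.13 (adjusted p = 0.124). Leaving 1 library out gave 1.37 to 3.91. The median over the members was 0.57, beside 0.20 over all genes. Erythroid markers had higher values for 14 of 17 genes with 0 passing by edgeR and a median of 1.25. Markers of other cells moved more: all 8 mature neutrophil markers were lower, 6 of them passing, with a median of -3.67, and all 6 B cell markers were higher, 2 of them passing, with a median of 3.46. One or more myeloid, immature neutrophil and monocyte markers also fell and 1 T cell marker rose, and the part of these cells in the Alas1 value was not tested.

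In LSK cells Alas2 was at 2.23 and 1.52 CPM in Ptpn11D61Y/+, below both MxCre libraries, at a log2 fold change of -4.76 (adjusted p = 0.48), and Alas1 stood at 0.27. Of the members 0 passed with edgeR, where 0.0614% of all genes passed, and 1 member and 330 genes had an unadjusted p under 0.05. Markers of other cells moved with it: all 8 mature neutrophil markers had lower values, 3 of them passing, with a median of -4.93, and 8 of 10 macrophage markers (median -1.95) and 10 of 17 erythroid markers (median -0.65) had lower values with none passing. Their part in the Alas2 value was not tested. In BM CD11b+ cells Alas2 was at 3452 and 4696 CPM, above both MxCre libraries, at a log2 fold change of 3.07 (adjusted p = 0.181, and 6.20 with an adjusted p of 0.0217 against the single library left without MxCre replicate 2, or 2.17 without MxCre replicate 1), with 0 members and 0% of genes passing and 1 member under an unadjusted p of 0.05. Over all genes, 4419 had an unadjusted p under 0.05 in this BM comparison. Of the 17 erythroid markers there 15 had higher values, with a median of 1.18 and none passing. Summed without globins they were at 9661 and 9863 CPM in Ptpn11D61Y/+ and at 181.6 and 5354 CPM in MxCre replicates 1 and 2, while with globins the order turned for replicate 2, at 163000 and 162000 CPM against 50070 and 225200 CPM. All 10 macrophage markers had lower values in these BM cells, with a median of -4.07 and none passing. All 6 B cell markers (median 1.52) and all 6 T cell markers (median 1.49) had higher values, also with none passing. The part of these cells in the Alas2 level was not tested.

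S3 was also set against Ptpn11D61Y/+, a comparison that shares its libraries with the 2 above. No member passed by edgeR in LSK, BM or spleen cells, where 0.0972%, 0% and 0.00511% of all genes passed. In the same order, 0, 3 and 3 members had an unadjusted p under 0.05, beside 1123, 1608 and 1736 of all genes. Alas2 differed by 0.01 in LSK cells (-0.09 with RLE factors and -0.08 with library size alone), by -3.03 in BM CD11b+ cells (adjusted p = 0.507) and by 3.01 in spleen CD11b+ cells (adjusted p = 0.468) on the log2 scale. The spleen value ran from 1.554 to 4.835 leaving 1 library out. The BM libraries did not overlap, with S3 at 201.5 to 916.3 CPM below 3452 and 4696 CPM, whereas in the spleen S3 at 90.0 CPM fell below the higher control at 96.6 CPM. Alas1 stood at 0.71 in LSK (adjusted p = 0.929) and at 0.76 in spleen cells (adjusted p = 0.567). The median over the members was 0.13 in LSK, -1.23 in BM and 1.63 in spleen cells, beside 0.04, -0.03 and 0.07 over all genes. Erythroid markers had the same signs, with 17 of 17 lower in BM cells (median -1.31), 17 of 17 higher in spleen cells (median 3.66) and 12 of 17 higher in LSK cells (median 0.18). All 8 mature neutrophil markers had higher values in spleen cells (median 3.17) and in LSK cells (median 2.15). All 10 macrophage markers had higher values in LSK (median 2.91) and BM cells (median 1.51), and all 5 mast and basophil markers in LSK (median 2.25) and BM cells (median 5.60). In spleen cells all 5 NK cell markers (median -3.25) and all 6 B cell markers (median -2.01) had lower values, as did all 6 B cell markers in BM cells (median -2.10). None of these markers passed by edgeR, and their part in the enzyme values was not tested.

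BM CD11b+ cells were compared with LSK cells within each genotype. All 8 members had higher fitted values in BM cells in each, and 5 passed the test: Alas2, Fech, Uros and Urod in every genotype, with Alas1 in MxCre and Ppox in the other 2. In Ptpn11D61Y/+ mice, Alas2 was higher in BM CD11b+ than in LSK cells by 11.08 (SE 1.69, adjusted p = 4e-04) on the log2 scale, the largest fold change of any member in a comparison of 2 groups. Fech (4.82), Uros (3.62), Urod (3.58) and Ppox (2.61) also passed, 5 of 8 members where 19.7% of all genes passed, and the median over the members was 3.33 beside -0.04. In S3 mice Alas2 rose by 8.05 (SE 1.23, adjusted p = 0.000355), Fech by 2.83, Uros by 2.55, Urod by 2.37 and Ppox by 1.58, again 5 of 8, where 27.1% of genes passed, with a median of 2.42 beside -0.08. In MxCre mice Alas2 (3.25), Fech (2.93), Urod (2.66), Uros (2.59) and Alas1 (1.11, adjusted p = 0.0367) passed, 5 of 8 where 36.9% of genes passed, with a median of 2.62 beside -0.28. Erythroid markers moved with the enzymes: 16 of 17 had higher values in BM cells in every genotype, with medians of 2.61 in MxCre (5 passing), 5.39 in Ptpn11D61Y/+ (8 passing) and 3.56 in S3 mice (7 passing), and their part in the enzyme values was not tested. The Alas2 libraries of MxCre overlapped between these fractions, 56.3 CPM in BM lying below 66.5 CPM in LSK. In S3 mice Uros, Urod and Ppox passed although their libraries overlapped, BM 640 with Uros at 7.25 CPM lying below all 3 LSK libraries at 12 to 14.6 CPM. With S3 libraries paired by animal, only Alas2 still passed (7.42, adjusted p = 0.00308), as it did with LSK 540 taken as another animal (6.92, adjusted p = 0.0388). The other 4 had adjusted p-values of 0.0648 to 0.121 when paired. The counts of members passing changed when single libraries were left out. In MxCre mice 0 members passed without LSK replicate 1, LSK replicate 2 or BM replicate 2, and 5 without BM replicate 1. Without BM replicate 2 the MxCre folds themselves dropped to 0.11 for Alas2, 0.20 for Uros, 0.42 for Urod, 0.81 for Alas1 and 0.92 for Fech, and scaling by library size alone also left 0 members passing. Over 12 alternatives the MxCre Alas1 fold ran from 0.052 to 1.316. In Ptpn11D61Y/+ mice 1 passed without either LSK library, 2 without BM replicate 1 and 3 without BM replicate 2, while the folds stayed close to those above, at 10.81 to 11.39 for Alas2, 4.71 to 4.90 for Fech, 3.47 to 3.72 for Uros, 3.28 to 3.79 for Urod and 2.41 to 2.75 for Ppox. In S3 mice 1 passed without any 1 of the LSK libraries, 2 without BM 540 or BM 815 and 6 without BM 640, with Alas2 at 7.27 to 8.42, Fech at 2.58 to 3.20, Uros at 2.17 to 3.10, Urod at 1.97 to 2.88 and Ppox at 0.975, without BM 540, to 1.998. Scaling by library size alone moved the median of all genes by -1.05 in MxCre, -0.89 in Ptpn11D61Y/+ and -0.56 in S3 mice.

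Spleen CD11b+ cells were set against LSK cells in the same way. In S3 mice Alas2 (7.91, SE 1.22, adjusted p = 0.000342) and Fech (2.74, adjusted p = 0.0191) passed, higher in the spleen. They were 2 of 8 members where 27.4% of all genes passed, with a median over the members of 1.35 beside 0.02. Paired by animal, Alas2 passed at 6.77 (adjusted p = 0.00532) and Fech did not at 1.73 (adjusted p = 0.258), and with LSK 540 as another animal Alas2 stood at 6.31 (adjusted p = 0.0558). In Ptpn11D61Y/+ mice Alas2 alone passed, higher in the spleen (4.91, adjusted p = 0.0176), 1 of 8 where 18.1% of genes passed. In MxCre mice the direction of Alas2 was the other one (-2.99, adjusted p = 0.0543). There Alas2 passed in 5 of 12 alternatives and ran from -4.132 to -2.529 over them. In the fit reported only Alas1 passed, higher in the spleen by 1.68 (adjusted p = 0.00443), 1 of 8 where 41.6% of genes passed. The medians over the members were -0.24 in Ptpn11D61Y/+ and -0.58 in MxCre mice, beside -0.08 and -0.34 over all genes. Of 17 erythroid markers 16 were higher in the spleen in S3 (median 3.55, 8 passing), 7 in Ptpn11D61Y/+ (median -1.01, 4 passing, all higher) and 4 in MxCre mice (median -3.34, 3 passing, all lower), and their part in these values was not tested. In S3 mice 1 member passed without any 1 of the LSK libraries or without spleen 640, where Fech stood at 0.94. The Ptpn11D61Y/+ call was lost without either LSK library or without spleen replicate 1 (3.08), and the MxCre call without LSK replicate 2 or without spleen replicate 2 (0.86). Over 12 alternatives the MxCre Alas1 fold ran from 0.476 to 2.183, and its call was lost in 4.

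Spleen and BM CD11b+ cells were compared last. In Ptpn11D61Y/+ mice Alas2 (-6.17, adjusted p = 0.0275), Fech (-4.78, adjusted p = 0.0278), Urod (-3.81, adjusted p = 0.0437) and Ppox (-3.04, adjusted p = 0.0327) passed, lower in the spleen. They were 4 of 8 members where 3.69% of all genes passed, with a median over the members of -3.78. Leaving out any 1 library of these groups left 0 members passing, with folds of -8.00 to -5.41 for Alas2, -5.55 to -4.30 for Fech, -4.05 to -3.54 for Urod and -3.41 to -2.79 for Ppox. In MxCre mice Alas2 was lower in the spleen by -6.23 (adjusted p = 0.045), 1 of 8 where 0.915% of genes passed, with a median of -2.73, and 5 members passed without BM replicate 1 and 0 without any other library. Without BM replicate 2 the Alas2 fold was -3.12, and without any other library it lay between -7.15 and -6.17. In S3 mice 0 members passed by edgeR where 0.0563% of genes did, Alas2 stood at -0.13 (adjusted p = 0.987, and 0.02 when scaled by library size alone), and the median was -0.42. All 17 erythroid markers had lower values in the spleen in MxCre (median -6.00, 4 passing) and in Ptpn11D61Y/+ mice (median -5.85, 4 passing), and 11 of 17 in S3 mice (median -0.44, none passing), and their part in the enzyme values was not tested. Alas1 was lower in the spleen than in the BM in each of the 3 animals, at 130.9 against 200.4 CPM in 540, 87.1 against 119.9 in 815 and 125.7 against 178.7 in 640, but did not pass with the libraries unpaired (-0.54, adjusted p = 0.641) or paired by animal (-0.53, adjusted p = 0.622).

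The later enzymes varied most within the BM CD11b+ and spleen fractions. Alad (ENSMUSG00000028393, chr4:62509169-62519918, minus strand) and Urod (ENSMUSG00000028684, chr4:116989965-116994413, minus strand) reached 588.3 and 489.9 CPM in MxCre replicate 2 but 34.9 and 59.4 CPM in replicate 1. Uros (ENSMUSG00000030979, chr7:133686243-133710072, minus strand) was at 112.7 to 160.8 CPM in 5 of the BM libraries and at 13.8 and 7.25 CPM in MxCre replicate 1 and S3 animal 640. The same 2 libraries were the lowest of the fraction for Alad, Urod, Cpox, Ppox and Fech. Cpox (ENSMUSG00000022742, chr16:58670292-58717636, plus strand) was at 248.8 and 290.8 CPM in Ptpn11D61Y/+ and at 6.60 and 110.9 CPM in MxCre. Ppox (ENSMUSG00000062729, chr1:171275990-171281186, minus strand) varied least of the later enzymes, from 33.6 to 398.5 CPM over all libraries. Fech (ENSMUSG00000024588) reached 868.5 and 989.2 CPM in Ptpn11D61Y/+ BM cells. Exons of Alas1, Alas2, Cpox and Ppox overlap exons of other genes on the opposite strand, and whether counting used strand is not given in the sources used here, so their counts could include reads of those neighbours.

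**Figure D5:**
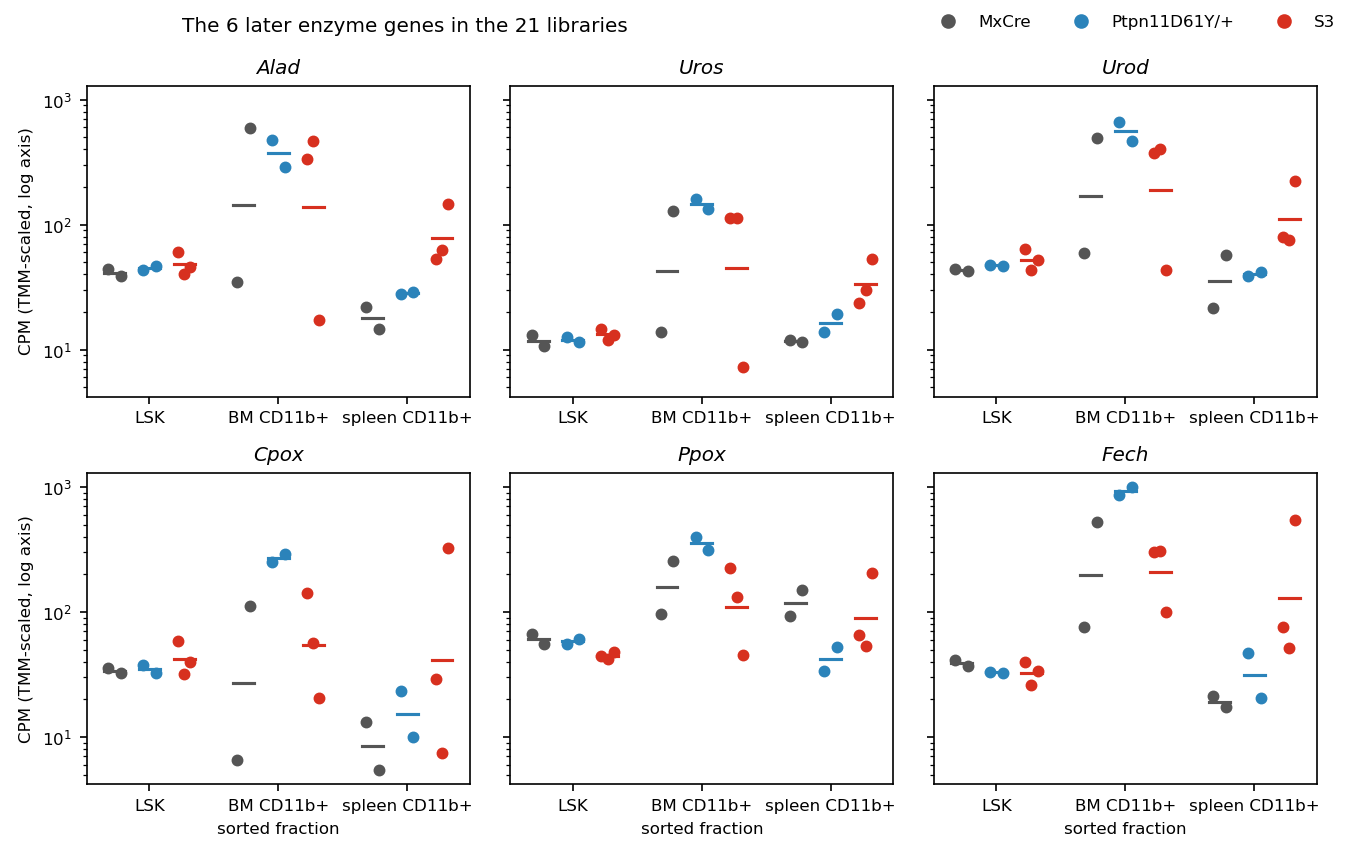
TMM-scaled CPM (log axis) of Alad, Uros, Urod, Cpox, Ppox and Fech in each of the 21 libraries by sorted fraction, with 1 point per library, colours for the genotypes and bars at the group mean of the log values. The enzymes are close together across genotypes in LSK cells, and in BM CD11b+ cells MxCre replicate 1 and S3 animal 640 lie lowest, as for Uros at 13.8 and 7.25 CPM.

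Across the 21 libraries the later enzymes had higher correlations with each other than with Alas1. Pearson's r of log2 CPM was 0.97 between Uros and Urod, 0.95 between Alad and Uros and 0.95 between Alad and Urod, and it was 0.88 between Alas2 and Fech. Alas1 reached 0.57 with Ppox and 0.29 with Alas2, and within fractions of 7 libraries the value with Alas2 was -0.67 in LSK, 0.62 in BM and -0.24 in spleen cells. In spleen cells Ppox stood at 0.72 with Alas1, above its 0.24 to 0.51 with the other later enzymes. With the summed erythroid markers Alas2 stood at 0.90, Fech at 0.89, Alad at 0.75, Cpox at 0.48 and Alas1 at 0.39, and with their sum without globins at 0.65, 0.89, 0.87, 0.93 and 0.24. Uros, Urod and Ppox stood at 0.83, 0.83 and 0.76 with the full sum and at 0.77, 0.85 and 0.64 without globins. Within fractions Alas2 stood at 0.87 in LSK, 0.50 in BM and 0.88 in spleen cells with the full sum, and at 0.11, 0.85 and 0.95 without globins. The libraries share fractions and genotypes, so these values describe them only.

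Among the genes whose log2 CPM followed Alas2 most closely over the 21 libraries were Apol11b (r = 0.98), Bpgm, which makes the 2,3-bisphosphoglycerate of red cells (0.96), Hbq1b (0.95) and Hbb-bs (0.95). Among those closest to Alas1 were the scavenger receptor gene Olr1 (0.90), Hk3, a hexokinase (0.89), Ap3s1 (0.88) and Ptbp3 (0.85).

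Other genes around the pathway were read in the spleen comparison of S3 with MxCre. Of 24 tested genes that supply substrate and iron, 19 had higher and 5 lower fitted values, with a median of 0.79. Tfr2, the second transferrin receptor (7.55, adjusted p = 0.0257, with 0 counts in 1 MxCre library), and Shmt2, which makes glycine in the mitochondrion (2.15, adjusted p = 0.038), rose, and Slc25a28, the mitochondrial iron importer mitoferrin-2, fell (-1.34, adjusted p = 0.0401). Of 12 genes for heme breakdown, export and binding 11 had higher values and 0 passed by edgeR, with the exporter gene Abcg2 at 3.04 (adjusted p = 0.083), Hmox2, a heme oxygenase, at 1.24 (adjusted p = 0.0576) and a median of 0.94. Of 10 genes for iron storage, export and sensing 5 had higher and 5 lower values, and Nfe2l2, a regulator of antioxidant genes (-2.12, adjusted p = 0.0123), and Fbxl5, an iron sensor (-2.05, adjusted p = 0.0189), fell. Among 15 genes of other heme proteins 9 had higher values, the median was 0.20 and the cyclooxygenase gene Ptgs2 fell (-3.21, adjusted p = 0.0461).

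Of 7 regulators of Alas1, 6 had higher and 1 a lower value, with a median of 0.65 and 0 passing by edgeR (Tfam 0.81, Foxo1 0.65), beside the Alas1 value of -0.90. Of 9 erythroid regulators, 7 had higher values with a median of 2.53, and Lmo2, a bridging factor of the GATA1 complex, rose (1.71, adjusted p = 0.0414). Markers of other cells moved in the same comparison, and their part in the enzyme values was not tested: Prss34, a basophil protease, rose (5.07, adjusted p = 0.0255), and Csf3r, a granulocyte receptor, fell (-3.49, adjusted p = 0.0137). All 8 mature neutrophil markers had lower values, with a median of -0.84, and all 6 B cell markers higher ones, with a median of 1.62, with none passing.

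In LSK cells, 0 genes of these pathway lists passed by edgeR, with adjusted p-values of 1 for the genes named unless given. The supply list had 19 higher and 5 lower values with a median of 0.28, with Tfrc, the main iron importer of red cell precursors, at 1.0 and Steap3, a ferrireductase, at 0.80. Among the genes for breakdown, export and binding 8 were higher and 4 lower (Blvra 0.55, Blvrb 0.51), among those for iron storage, export and sensing 5 and 5 (Slc40a1, the iron exporter, 0.93, and Fbxl5 -0.28), among other heme proteins 10 and 5 (Epx, eosinophil peroxidase, 3.38, adjusted p = 0.477, and Ptgs2 -2.08), among regulators of Alas1 4 and 3 (Foxo1 -0.61, Tfam 0.23) and among erythroid regulators 4 and 5 (Gfi1b 0.91). Of the markers of other cells Mmp9, a neutrophil protease, fell (-5.06, adjusted p = 0.00256), and 7 of 8 mature neutrophil markers had lower values with a median of -1.92. All 5 mast and basophil markers (median 4.09), 5 immature neutrophil markers (1.54), 6 megakaryocyte markers (1.21) and 5 NK cell markers (2.22) had higher values and all 6 B cell markers lower ones (-1.13), with none passing, and their part in the Alas2 and Alas1 values was not tested.

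In BM CD11b+ cells 0 passed as well, with supply genes split into 12 higher and 12 lower (Steap3 0.80, Shmt2 0.79). Of 12 genes for heme breakdown, export and binding 10 were lower, with a median of -0.52, Hmox1, which degrades heme, at -2.16 (adjusted p = 0.294) and Slc48a1, a heme transporter, at -1.13 (adjusted p = 0.23). Hmox1 overlapped between the groups, at 3590 and 129.6 CPM in MxCre replicates 1 and 2 and at 224.6, 88.4 and 933.0 CPM in S3 animals 540, 815 and 640. Slc40a1 stood at -2.87 (adjusted p = 0.168) and Fth1, a ferritin chain, at -1.98 (adjusted p = 0.195), among 5 higher and 5 lower genes for iron storage, export and sensing. The MxCre libraries were far apart for Slc40a1 and Fth1, with SDs of 2.12 and 1.99 log2 CPM. Other heme proteins were split into 7 higher and 8 lower (Ptgs2 -3.85, adjusted p = 0.144, and Epx 2.03, adjusted p = 0.271), regulators of Alas1 into 5 and 2 (Gabpa 0.59, Sin3a 0.48) and erythroid regulators into 7 and 2 (Ldb1 -0.64, Bcl11a 0.40). Macrophage markers were lower for 10 of 10 genes, with a median of -1.92. All 8 mature neutrophil markers (median -0.50) and all 6 B cell markers (-0.60) also had lower values, and all 5 mast and basophil markers (3.71), 5 NK cell markers (1.64), 5 dendritic cell markers (1.39), 5 immature neutrophil markers (0.38) and 6 T cell markers (1.55) higher ones. None passed by edgeR, and their part in these values was not tested.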

How the data were processed

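Per the labels and the study's methods, RNA of the isolated cells went through a stranded mRNA library kit and paired-end sequencing. The authors trimmed reads with Trim Galore (0.6.5), aligned them to GRCm38 with STAR (2.5.3a) and deposited raw counts per Ensembl gene for each library. The counting tool and its strand setting are not given in the sources used here. Symbols were found for 45143 of 45706 IDs. Of the IDs, 19555, with 99.99% of counts, passed edgeR's filter (minimum count 10, minimum total 15). All 21 libraries in 9 groups entered 1 quasi-likelihood fit (edgeR 4.0.16, R 4.3.3, TMM scaling, 12 residual degrees of freedom), with Benjamini-Hochberg adjustment over all genes and a threshold of 0.05. CPM values used TMM-scaled totals, log2 CPM a prior count of 2 and the ratio a pseudocount of 0.5. DESeq2 (1.42.0), other scalings, filters and left-out libraries were tried as alternatives. Scripts were tested on simulated data. The 8 genes and all lists were chosen with earlier results of these data known. Named genes were the 8 members, the 5 genes most correlated with Alas1 and with Alas2, and, per list and S3 against MxCre comparison, up to 4 genes that passed or, where none did, up to 2 with the largest fold change and a mean of at least 3 log2 CPM. Of the marker lists of other cells, the genes named are those that passed. A few genes that these rules pick are not reported here.

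S3 libraries were paired by the animal numbers of the labels. Their deviations from group means correlated between spleen and BM at 0.108, 0.407 and 0.333 for animals 540, 815 and 640, but between LSK and BM at 0.072 for 540 and -0.096 for 815. Control libraries shared only a number. No 2 libraries held the same counts. PCR duplicates were not separated, so precision rests on the spread between libraries.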

Additional observations from a re-analysis of the deposited data

Results flagged for a closer look

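The Alas2 change from MxCre to S3 had opposite signs in 2 fractions: every S3 library lay below both MxCre libraries in LSK cells and above both in spleen CD11b+ cells. S3 overlapped the other control genotype in both fractions. In LSK cells Ptpn11D61Y/+ was at 2.23 and 1.52 CPM and S3 at 1.40 to 2.63 CPM. In the spleen Ptpn11D61Y/+ was at 96.6 and 16.3 CPM and the lowest S3 library at 90.0 CPM. The fitted changes from MxCre to S3 differed by 10.90 on the log2 scale (SE 1.79), and the interaction did not pass the threshold (edgeR, adjusted p = 0.0601). It passed in 5 of 17 alternatives: scaling by library size alone (adjusted p = 0.0472), DESeq2 (adjusted p = 8.05e-12), only the libraries compared (adjusted p = 0.0292), without spleen S3 animal 815 (adjusted p = 0.0231) and without the 3 libraries with the fewest detected genes (adjusted p = 0.0315), which leaves 1 spleen MxCre library. In the other 12 the adjusted p was 0.051 to 0.263.

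The log2 ratio of Alas2 to Alas1 moved the same way, down in all 3 S3 libraries of LSK cells and up in all 3 of the spleen, so that the S3 minus MxCre differences lay 11.94 apart. This difference was not tested. In Ptpn11D61Y/+ libraries the log2 ratio was -3.90 and -4.26 in LSK and 1.78 and -0.60 in spleen cells.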

How the results depend on the processing

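Of 75 fold changes followed, 60 kept their sign under every alternative run, and 2 of the 26 called kept their call, Alas2 in BM CD11b+ against LSK cells in Ptpn11D61Y/+ and S3 mice; where a call was lost the cause was not tested. Alas2, S3 against MxCre, spleen, kept its sign (3.85 to 6.74): the call was lost with no low-count filter (6.19), with only the libraries compared (6.09) and with both control genotypes together (3.85), and leaving out 1 library gave 4.69 to 6.63. In LSK, Alas2 passed with DESeq2 (-4.86) and with only the libraries compared (-4.79), and Alas1 (0.95) and Ppox (-0.48) with only the libraries compared. With only the libraries compared, 4700 of all genes passed there. Alas1 in the spleen passed with DESeq2 (-0.91) and without the 3 libraries with the fewest detected genes (-1.41) and ran from -1.41 to -0.089 leaving 1 out. The alternative without those 3 libraries was, with the pairings below that treat LSK 540 as another animal or cross numbers, chosen after seeing the data. Signs turned mainly in BM, S3 against MxCre. Alas2 there gave -0.003 with RLE factors and DESeq2, -2.18 with both controls, -0.48 without the 3 libraries and -0.86 to 3.17 leaving 1 out. Leaving 1 out gave -0.011 to 0.494 for Alas1, -1.11 to 2.97 for Alad, -0.72 to 2.5 for Uros, -0.84 to 2.21 for Urod, -0.62 to 3.48 for Cpox, -1.003 to 0.477 for Ppox, -1.13 to 1.66 for Fech and -1.09 to 2.43 for the ratio. Both controls and the 3 libraries left out gave -0.49 and -1.09 for Uros and -1.16 and -0.43 for Cpox. Urod gave 0.16 with library size alone, 0 unfiltered, 0.005 with at least 10 counts in every library and 0.015 with only the libraries compared. Ppox in the spleen gave 0.41 with library size alone, 0.39 with both controls and -1.02 to 0.23 leaving 1 out. Alas2, S3 against Ptpn11D61Y/+ in LSK, gave -0.093 (RLE, DESeq2), -0.077 (library size), -0.004 (no filter), -0.02 (at least 10 counts), -0.048 (only the libraries compared) and -0.30 to 0.33 leaving 1 out. Alas2, spleen against BM in S3, gave 0.024 with library size and -1.60 to 0.64 leaving 1 out. Alas1 gave -0.023 without the 3 libraries and -0.022 to 0.482 leaving 1 out for Ptpn11D61Y/+ against MxCre in BM, -0.14 to 0.21 for S3 against Ptpn11D61Y/+ in BM, -0.22 to 1.10 for spleen against BM in MxCre, and, BM against LSK in S3, -0.25 with library size and -0.032 in the replicate block with LSK 540 as another animal.

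Members called (of 8) moved as follows. S3 against MxCre: LSK 0, DESeq2 1, only the libraries compared 3; spleen 1, with library size, at least 10 counts or without the 3 libraries 2, DESeq2 4, no filter, only the libraries compared or both controls 0, leaving 1 out 0 to 2. Ptpn11D61Y/+ against MxCre: LSK 0, DESeq2 1; BM 0, leaving 1 out 0 to 2; spleen 1, library size, only the libraries compared and replicate block 0 (Alas1 -1.51, adjusted p = 0.116), DESeq2 2, leaving 1 out 0 to 1. S3 against Ptpn11D61Y/+, LSK: 0, only the libraries compared 2. BM against LSK: MxCre 5, library size, no filter and only the libraries compared 0, replicate block 1, leaving 1 out 0 to 5; Ptpn11D61Y/+ 5, only the libraries compared 8, leaving 1 out 1 to 3; S3 5, library size and both blocks 1, no filter and only the libraries compared 2, leaving 1 out 1 to 6. Spleen against LSK: MxCre 1, RLE, DESeq2 and at least 10 counts 2, only the libraries compared 4, leaving 1 out 0 to 1; Ptpn11D61Y/+ 1, no filter 0, only the libraries compared 2, leaving 1 out 0 to 1; S3 2, paired 1, LSK 540 as another animal 0, leaving 1 out 1 to 2. Spleen against BM: MxCre 1, library size, no filter, at least 10 counts, only the libraries compared and block 0, DESeq2 5, without the 3 libraries 2, leaving 1 out 0 to 5; Ptpn11D61Y/+ 4, library size and no filter 2, DESeq2 and only the libraries compared 8, block 1, crossed numbers 1, without the 3 libraries 7, leaving 1 out 0. The block changed no other member count by over 1.5 times. Some of these settings also raised the number of all genes called. For S3 against MxCre it was 4700 in LSK with only the libraries compared and 3369 in spleen with DESeq2. With only the libraries compared, it was 5223 for S3 against Ptpn11D61Y/+ in LSK. In Ptpn11D61Y/+ mice that fit gave 12583 for BM against LSK, 9177 for spleen against LSK and 4265 for spleen against BM. DESeq2 gave 2116 for spleen against BM in MxCre. For spleen against LSK in MxCre, Alas1 lost its call in 4 of 12 alternatives and Alas2 gained one in 5. Control numbers did not pair the libraries: correlations of same-numbered MxCre libraries between fractions were -0.035, -0.004 and 0.059. No paired analysis was possible within a fraction for S3 because it shares no numbers with the controls.

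Genes called over all genes changed by over 1.5 times: S3 against MxCre 6 in LSK (0 to 4700), 0 in BM (0 to 2040) and 819 in spleen (0 to 3369); Ptpn11D61Y/+ against MxCre 12 (0 to 2508), 0 (0 to 2852) and 1000 (0 to 3329); S3 against Ptpn11D61Y/+ 19 (0 to 5223), 0 (0 to 247) and 1 (0 to 387); BM against LSK 7221 (2863 to 9101) in MxCre, 3844 (1144 to 12583) in Ptpn11D61Y/+ and 5301 (2954 to 7335) in S3; spleen against LSK 8137 (4032 to 9800), 3542 (934 to 9177) and 5349 (3006 to 8504); spleen against BM 179 (0 to 2116), 722 (0 to 4265) and 11 (0 to 547); the differences between fractions 1 (0 to 827, spleen and LSK), 0 (0 to 514, spleen and BM) and 0 (0 to 438, BM and LSK). The lowest count of a member was 134, and each control group held 2 libraries.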
